A study of Mus musculus with 24 samples.

Results

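Inherited ataxias are disorders of balance and movement that follow mutation of single genes, and the cerebellum is the tissue most often affected. The genes described here are mouse homologues of 28 genes mutated in dominant or recessive ataxias, set out by name. All 28 were found by symbol among the 43430 genes of the count table. Of these, 27 had enough counts to be tested, among 15300 genes tested in all, and Pdyn had too few. The rule that defines them is a list of names and uses no measured value.

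Messenger RNA was sequenced from the frozen whole cerebellum of 24 mice aged about 7 weeks, 1 library per mouse. The series' title concerns NAD+ regeneration, lifespan and ataxia in mice with a fault of mitochondrial complex I in the brain, and the comparisons ask whether RNA of ataxia genes differed with the knockout, and with NDI1. There were 4 genotype groups of 6 mice, with both sexes represented by 3 mice in each. The cKO+NDI1 mice carry the conditional knockout together with NDI1, a yeast enzyme that oxidises NADH without pumping protons. The cKO mice carry the knockout alone, the NDI1 control mice express NDI1, and the Cre control mice are named for Cre. The labels name neither the deleted gene nor the Cre driver. The published study is known to have deleted Ndufs4, an accessory subunit of complex I, with Nestin-Cre, which acts in precursors of neurons and glia. Whether the NDI1 control mice carry Cre is not given in the sources used here.

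The dominant ataxias are caused in large part by expanded repeats, among them CAG repeats that encode glutamine, and by mutated ion channels and signalling proteins of Purkinje cells, whose axons are the output of the cerebellar cortex. The recessive ataxias often affect mitochondria, DNA repair or lipid handling. A mutation that causes ataxia need not change the level of the RNA, so the values below are levels of RNA from genes that carry no ataxia mutation by the labels.

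Some mouse homologues of the polyglutamine genes carry short glutamine tracts. The longest in-frame runs of CAG and CAA, both codons for glutamine, were read from the GENCODE M21 coding sequences (build GRCm38, which is mm10) and are printed for the 3 genes where they exceeded 3 codons, because repeats of this kind are what the human disorders expand. Capitals mark the run, and the 12 bases on either side are in lower case.
Tbp, chr17:15504379-15504441, plus strand, exon 3: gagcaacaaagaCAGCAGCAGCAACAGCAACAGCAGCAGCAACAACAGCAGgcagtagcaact
Atxn7, chr14:14013144-14013182, plus strand, exon 2: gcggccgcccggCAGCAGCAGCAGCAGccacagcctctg
Atxn3, chromosome 12, minus strand, across an exon junction: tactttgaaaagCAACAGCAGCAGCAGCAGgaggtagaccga
Tbp had 13 such codons (9 CAG and 4 CAA), and a run at least as long was found in 0.314% of 14004 coding genes. Atxn3 had 6 codons (1.11% of genes) and Atxn7 had 5 (1.5%). The longest runs of Atxn1, Atxn2 and Cacna1a had 3 codons each, a length reached by 11.2% of genes, and are not taken here as counterparts of the human tracts. Counts per gene carry no information on repeat length, so these tracts describe the genes and not the samples.

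Library totals ranged from 7584374 counts (cKO+NDI1 replicate F3) to 19785264. Gt(ROSA)26Sor, the noncoding RNA of the locus where NDI1 is known to be inserted, averaged 7.04 ± 1.35 CPM in cKO+NDI1, 34.8 ± 8.14 in cKO, 7.01 ± 0.879 in NDI1 control and 35.7 ± 7.53 in Cre control (CPM are counts scaled to a common library size with TMM factors; SD, n = 6 per group here and below). Ndufs4 averaged 101 ± 15.1 CPM in cKO+NDI1, 95.4 ± 21.5 in cKO, 143.7 ± 41.8 in NDI1 control and 134 ± 23.6 in Cre control. Its groups overlapped, and the difference between cKO and Cre control did not pass the test (log2 -0.47 ± 0.16, SE here and below for log2 values; adjusted p = 0.0939). The deleted part of Ndufs4 is not given in the sources used here, so this count is no check of the labels. Markers of cerebellar neurons were high in every library. The summed level of 7 Purkinje cell markers (Pcp2 and Calb1 among them) was at least 6410.0 CPM, and that of 6 granule neuron markers (Gabra6 and Cbln1 among them) was at least 4734 CPM. The summed level of 4 forebrain markers was at most 10.8 CPM.

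The levels of the 28 genes spanned from 353 CPM per kilobase of exon for Eef2, the factor that moves the ribosome along the message, to 0.143 for Pdyn, the precursor of dynorphin peptides (means of 24 libraries). On that scale Itpr1, the IP3 receptor that releases calcium from the endoplasmic reticulum, and Atxn10, a cytoplasmic protein whose human gene holds an intronic repeat, followed Eef2 at 139 and 135. Kcna1, a potassium channel of axons, stood at 62.0 and Atcay, a brain protein mutated in Cayman ataxia, at 39.0. The middle of the order ran through Elovl5 (37.0) and Stub1 (36.95), Cacna1a (25.7), Elovl4 (24.8) and Rora (23.3), and Fgf14 (15.6) and Ppp2r2b (13.6). Of the genes grouped here by their repeats, those other than Atxn10 had low levels: Atxn3 at 3.48, Atxn2 at 3.44, Atxn7 at 2.48, Atxn1 at 2.38 and Tbp at 2.22. Atm, the DNA damage kinase, was the lowest gene that could be tested, at 1.03. Neighbours in the order, such as Itpr1 and Atxn10 or the pair of Elovl5 and Stub1, overlapped between libraries.

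**Figure D1:**
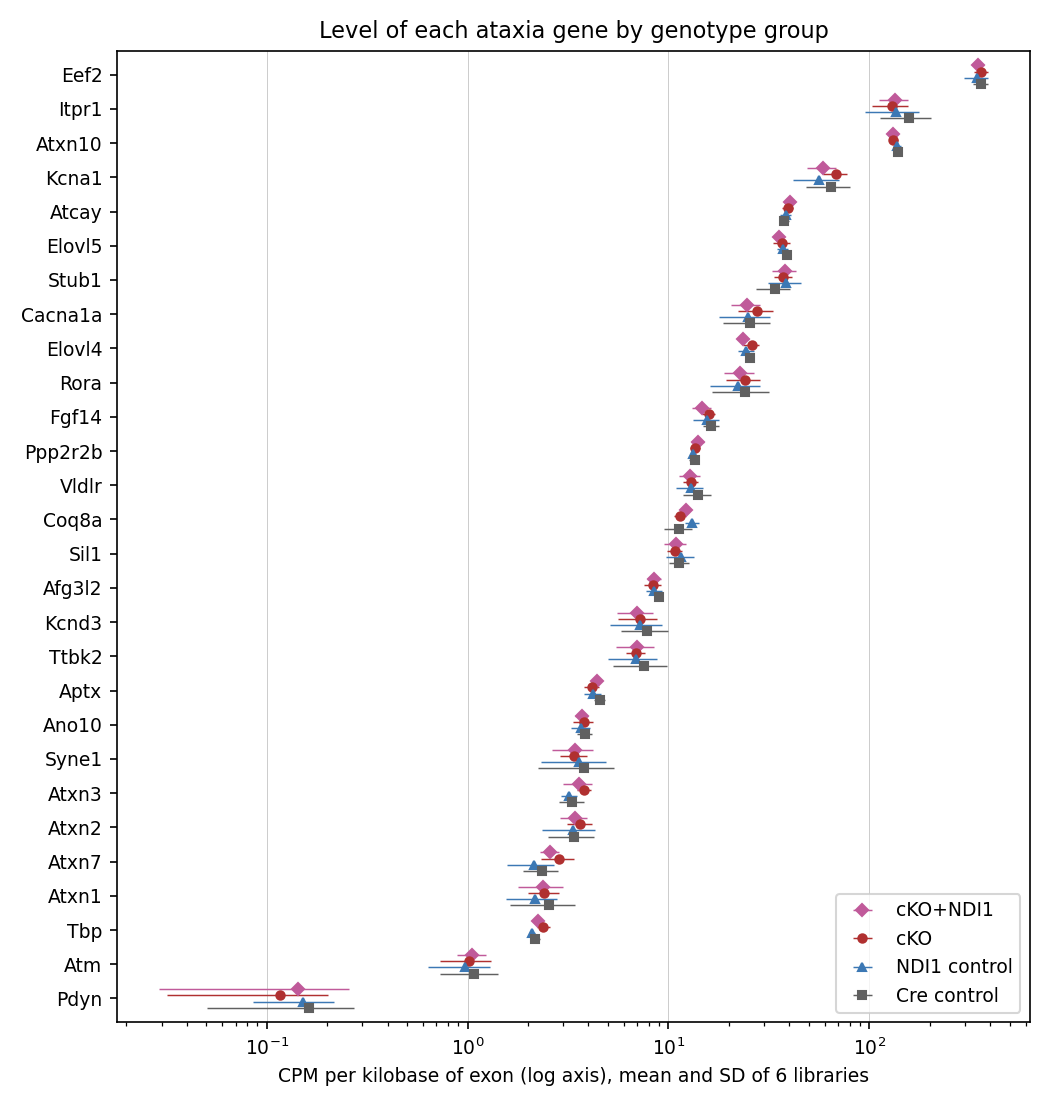
Level of each of the 28 ataxia genes in CPM per kilobase of exon, on a log axis, as the mean and SD of 6 libraries in each genotype group. Genes run from Eef2 at the top to Pdyn at the bottom, and the 4 groups of each gene lie close together compared with the distance between genes.

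Pdyn had between 1 and 16 counts per library. Its level was 0.414 ± 0.330 CPM in cKO+NDI1, 0.337 ± 0.245 in cKO, 0.435 ± 0.190 in NDI1 control and 0.467 ± 0.321 in Cre control. In the fit with no filter on low counts its log2 difference between cKO and Cre control was -0.52 ± 0.53 (adjusted p = 0.736), and Pdyn was not called in any of the 7 comparisons of that fit.

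None of the 27 tested ataxia genes passed the test in any of 7 comparisons. Genes were tested with the quasi-likelihood method of edgeR in 1 model of all 24 libraries, adjusted by Benjamini-Hochberg over 15300 genes, with a threshold of 0.05. In cKO against Cre control 0 of 27 were called, where 745 of all genes were (4.87%). In cKO+NDI1 against NDI1 control 0 were called, and 0 of all genes (0%; 25 with DESeq2). Against cKO, 0 members were called in cKO+NDI1, with 32 of all genes (0.209%), and against Cre control 0, with 191 of all genes (1.25%). The difference of NDI1 control from Cre control gave 0, with 1 of all genes (0.00654%). The interaction of knockout and NDI1 gave 0, with 0 of all genes (0%; 13 with DESeq2), and male against female gave 0, with 13 of all genes (0.085%). DESeq2 and limma-voom also called 0 members in each comparison. At these background shares, a count of 0 among 27 genes is near what the whole table shows. The comparisons with Cre control share its 6 libraries.

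At an unadjusted p under 0.05 there were 2 members in cKO against Cre control (18.5% of all genes), 0 in cKO+NDI1 against NDI1 control (4.48%), and 1 each in cKO+NDI1 against cKO (8.56%), cKO+NDI1 against Cre control (13.5%), the 2 control groups (9.2%) and the interaction (5.18%). In cKO against Cre control 13 members had positive and 14 negative log2 fold changes, with a median of -0.02 (all genes -0.01). With NDI1 in both groups there were 15 positive and 12 negative, with a median of 0.01 (all genes -0.01). For cKO+NDI1 against cKO there were 10 positive and 17 negative (median -0.03), and for cKO+NDI1 against Cre control 8 positive and 19 negative (median -0.05). For NDI1 control against Cre control there were 4 positive and 23 negative (median -0.07), where 51.4% of all genes were positive, and with an offset for gene length 10 were positive. The 95% intervals bound the size of what could have been missed. All 27 intervals lay within 1 log2 unit of 0 in each comparison, and the widest in cKO against Cre control reached -0.62 for Itpr1 and 0.60 for Atxn7.

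**Figure D2:**
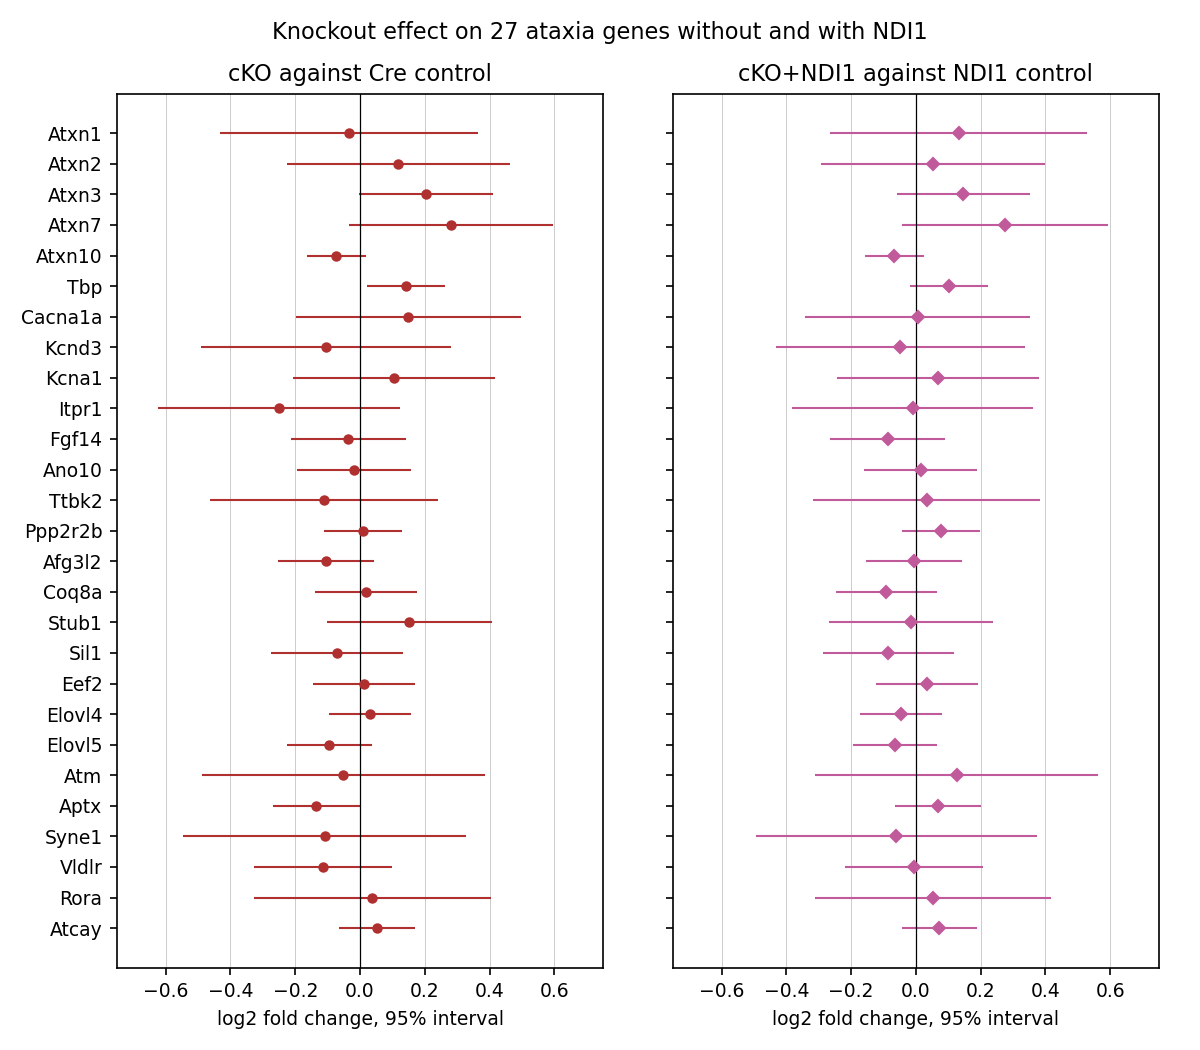
Log2 fold change of each of the 27 tested ataxia genes with its 95% interval, for cKO against Cre control (left) and cKO+NDI1 against NDI1 control (right), in the order of the genes' roles. The intervals of Tbp and Aptx leave 0 on the left before adjustment, and none leaves 0 on the right.

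Among the 6 repeat genes, Tbp, the TATA-binding protein of the general transcription machinery (chromosome 17, 15499888 to 15528379), had the smallest p in cKO against Cre control. Its level ran from 28.6 through a median of 32.7 to 35.1 CPM in cKO libraries, against 27.7, 29.2 and 31.6 in Cre control libraries. The upper part of the cKO libraries lay above the Cre control, and the groups overlapped. The difference was 0.14 ± 0.06 on the log2 scale (95% interval 0.02 to 0.26, adjusted p = 0.177). By sex with an offset for gene length, the sign turned in males (log2 -0.13, adjusted p = 0.672), and the log2 difference was 0.43 in females (adjusted p = 0.0724). That offset widened the residual SD of Tbp, the spread left on the log2 scale after genotype and sex, from 0.0801 to 0.234. Tbp did not follow the length slope described below (r -0.00775). With NDI1 in both groups, Tbp ran from 28.7 through 30.4 to 32.1 CPM in cKO+NDI1 libraries, against 26.7, 28.7 and 29.3 in NDI1 control libraries, a difference of 0.10 ± 0.06 (adjusted p = 0.998).

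Atxn7, a subunit of a histone acetylation complex, had the highest log2 fold change of the members in cKO against Cre control. It ranged from 16.4 through 22.2 to 28.3 CPM in cKO libraries, against 12.9, 19.2 and 23.1 in Cre control libraries. These groups overlapped widely, and the log2 difference of 0.28 ± 0.15 had an adjusted p of 0.343. Atxn7 also had the smallest p in cKO+NDI1 against NDI1 control, with 17.7, 21.6 and 22.3 CPM in cKO+NDI1 libraries, against 11.3, 16.4 and 22.3 in NDI1 control libraries (log2 0.28 ± 0.15, adjusted p = 0.998). Atxn3, a deubiquitinating enzyme, averaged 20.6 ± 1.55 CPM in cKO and 17.9 ± 2.54 in Cre control, a log2 difference of 0.20 ± 0.10 (adjusted p = 0.274). The remaining repeat genes were nearer to 0. The log2 difference between cKO and Cre control was 0.12 ± 0.17 for Atxn2, an RNA-binding protein, -0.03 ± 0.19 for Atxn1, a nuclear partner of transcriptional repressors, and -0.07 ± 0.04 for Atxn10.

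Atxn10 was the steadiest member. Its level lay between 238 and 288 CPM over all 24 libraries, with a residual SD of 0.05 on the log2 scale after genotype and sex, lower than in all but 0.157% of genes tested.

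Among the 6 channel genes, Itpr1 had the lowest log2 fold change of the members in cKO against Cre control. It ran from 1736 through 2480.0 to 2830.0 CPM in cKO libraries, against 2083, 2635 and 4031 in Cre control libraries. In 2 cases a Cre control library stood above every cKO library and the rest overlapped, and the log2 difference of -0.25 ± 0.18 had an adjusted p of 0.512. Cacna1a, the pore subunit of the P/Q-type calcium channel, averaged 281 ± 46.4 CPM in cKO+NDI1, 317 ± 62.7 in cKO, 284 ± 80.4 in NDI1 control and 290 ± 77.6 in Cre control. Kcna1 averaged 280 ± 46.9 CPM in cKO+NDI1, 327 ± 45.2 in cKO, 270.0 ± 69.8 in NDI1 control and 308 ± 77.2 in Cre control. In both genes the means of the groups differed by less than the largest SD of a group. Kcnd3, a potassium channel of the A-type current, and Fgf14, which binds sodium channels at the axon initial segment, had log2 differences of -0.10 ± 0.19 and -0.04 ± 0.09 between cKO and Cre control. Ano10, of the anoctamin family of channels and scramblases, had one of -0.02 ± 0.08.

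The kinase and the phosphatase subunit moved little. Ttbk2, a tau tubulin kinase needed to form cilia, had a log2 difference of -0.11 ± 0.17 between cKO and Cre control. Ppp2r2b, a regulatory subunit of protein phosphatase PP2A found in brain, had one of 0.01 ± 0.06, the nearest to 0 of the 27, and its level lay between 49.6 and 61.1 CPM in all 24 libraries.

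The pair of mitochondrial members differ in function from the complex that the knockout affects. Coq8a, which is needed for the synthesis of coenzyme Q, the acceptor of electrons from complex I and from NDI1 (chromosome 1, 180165238 to 180199602), had the smallest p of the members in NDI1 control against Cre control. It ran from 60.1 through 71.2 to 74.5 CPM in NDI1 control libraries, against 51.0, 56.7 and 77.5 in Cre control libraries. The highest library of all was Cre control replicate M1, and the groups overlapped. The log2 difference was 0.22 ± 0.08 (95% interval 0.06 to 0.37, adjusted p = 0.378). Between cKO and Cre control it was 0.02 ± 0.08, and between cKO+NDI1 and NDI1 control -0.09 ± 0.08. Afg3l2, a protease of the inner mitochondrial membrane, averaged 83.8 ± 6.38 CPM in cKO+NDI1, 82.3 ± 8.01 in cKO, 84.1 ± 7.91 in NDI1 control and 88.6 ± 4.36 in Cre control. Its log2 difference between cKO and Cre control was -0.10 ± 0.07 (adjusted p = 0.479).

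Of the genes of protein quality and translation, Stub1, a ubiquitin ligase that works with chaperones, had a log2 difference of 0.15 ± 0.12 between cKO and Cre control (adjusted p = 0.573). Sil1, a nucleotide exchange factor for the chaperone BiP, had one of -0.07 ± 0.10, and Eef2 one of 0.01 ± 0.08. Eef2 averaged 1160.0 ± 81.2 CPM in cKO+NDI1, 1201 ± 94.98 in cKO, 1137 ± 152 in NDI1 control and 1194 ± 106 in Cre control.

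The elongases of long-chain fatty acids had the smallest p of the members in both comparisons of cKO+NDI1 with a group without NDI1. Elovl5, which extends polyunsaturated fatty acids (chromosome 9, 77917364 to 77984519), ran from 113.5 through 126 to 131.3 CPM in cKO+NDI1 libraries, against 132.3, 135 and 147 in Cre control libraries. All cKO+NDI1 values lay below all those of Cre control, and with an offset for gene length they overlapped. That offset widened the residual SD of Elovl5 (0.115, against 0.0998 without it). Elovl5 had no relation to the length slope described below that passed the test (r 0.234). Without the offset, the log2 difference was -0.14 ± 0.06 (95% interval -0.27 to -0.01), with an adjusted p of 0.320. Elovl5 was 1 of 27 members whose groups did not overlap in that comparison, against 1.58% of all genes tested. The summed level of 5 oligodendrocyte markers also did not overlap between these groups, at 8214 to 10080.0 CPM in cKO+NDI1 and 11140.0 to 12940.0 in Cre control. All 5 had negative log2 fold changes there, and 3 of them were called (1.25% of all genes were). In cKO the sum ran from 10530.0 to 16710.0 CPM. In NDI1 control the sum ran from 8685 to 10990.0 CPM, also below all Cre control values. There all 5 log2 fold changes against Cre control were negative too, and 0 were called. The part of these markers' cells in the Elovl5 values was not tested. In cKO against Cre control 0 members had groups without overlap, against 2.69% of all genes. Elovl5 in cKO libraries ran from 114 through 132 to 144 CPM and overlapped both cKO+NDI1 and Cre control. In NDI1 control libraries Elovl5 ran from 114.7 through 133.4 to 137.6 CPM and also overlapped both. Elovl4, which makes very long chain fatty acids (chromosome 9, 83778692 to 83806277), ran from 66.6 through 70.0 to 79.3 CPM in cKO+NDI1 libraries, against 70.5, 77.6 and 90.9 in cKO libraries. The groups overlapped, and the log2 difference of -0.13 ± 0.06 had an adjusted p of 0.538. Between cKO and Cre control, Elovl4 differed by 0.03 ± 0.06.

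Aptx, an aprataxin that repairs broken DNA ends (chromosome 4, 40682382 to 40703194), was the other member with an unadjusted p under 0.05 in cKO against Cre control. It ran from 20.9 through 24.7 to 26.6 CPM in cKO libraries, against 25.5, 26.2 and 30.1 in Cre control libraries, a log2 difference of -0.13 ± 0.06 (adjusted p = 0.268). Between cKO+NDI1 and NDI1 control it was 0.07 ± 0.06. The difference of these effects, 0.20 ± 0.09, had the smallest p of the members in the interaction, with an adjusted p of 0.960. Atm had a log2 difference of -0.05 ± 0.21 between cKO and Cre control, and its 76 to 287 counts per library were the fewest of any tested member.

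**Figure D3:**
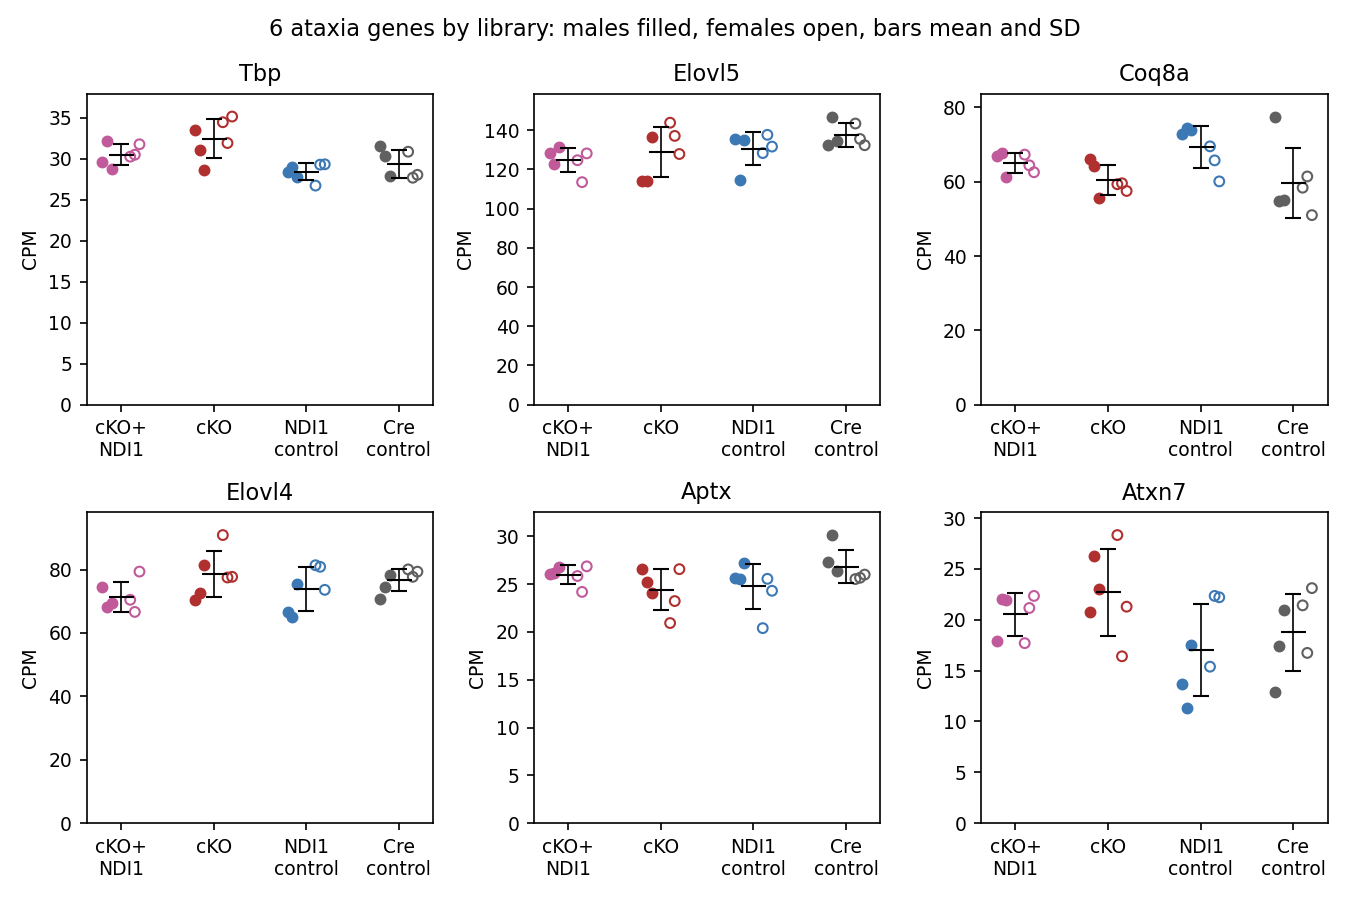
CPM in each of 24 libraries for the 6 ataxia genes with the smallest p in a comparison or under 0.05 before adjustment in cKO against Cre control; filled points are males, open points females, and bars the mean and SD of 6. All 6 Elovl5 values in cKO+NDI1 lie below all 6 in Cre control, and the other genes overlap between all groups.

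The last set holds a scaffold, a receptor, a transcription factor and Atcay. Syne1, a giant protein that links the nucleus to the cytoskeleton, had a log2 difference of -0.11 ± 0.21 between cKO and Cre control. Vldlr, a receptor for reelin that guides neurons in development, had one of -0.11 ± 0.10. Rora, a nuclear receptor that Purkinje cells need and that is deleted in part in the staggerer mouse, averaged 298 ± 51.8 CPM in cKO+NDI1, 315 ± 60.8 in cKO, 291 ± 81.7 in NDI1 control and 313 ± 98.7 in Cre control. Atcay had a log2 difference of 0.05 ± 0.06.

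The spread between libraries of 1 group was not even among the members. The residual SD on the log2 scale, after genotype and sex, ran from 0.05 in Atxn10, 0.08 in Tbp and in Atcay and 0.09 in Ppp2r2b to 0.39 in Atm and 0.40 in Syne1. Its median was 0.175 in the members and 0.209 in all genes tested. In the 10245 genes tested with a mean level at or above the lowest tested member, the median was 0.166. The members with wide spread moved together from library to library, along a trend with gene length. For each library, the slope of log2 level, relative to the mean of all libraries, on log2 exon length was taken over 15213 tested genes. It ran from -0.204 in NDI1 control replicate M2 to 0.175 in Cre control replicate F3. The slope averaged -0.00901 ± 0.0803 in cKO+NDI1, 0.0244 ± 0.0684 in cKO, -0.0318 ± 0.129 in NDI1 control and 0.0164 ± 0.11 in Cre control, with overlap between all groups. Neither the log2 library total (Pearson's r -0.0923, Spearman's rho 0.15, permutation p = 0.666 and 0.480) nor the mitochondrial share of counts (r 0.164, rho 0.133, permutation p = 0.443 and 0.534) showed a relation with the slope that passed the test. The adjusted p was 0.666 for both r values, and without the 2 libraries farthest from the median slope r was -0.195 and 0.246.

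The level of 22 of 27 members was related to this slope across the 24 libraries, by a permutation test of Pearson's r with 100000 permutations adjusted over 15300 genes. That is 81.5% of the members, against 62.0% of all genes tested. Of the members 19 relations were positive (70.4%) and 3 negative (11.1%), against 30.4% and 31.5% of all genes. The level and the slope come from the same libraries, and the slope is itself taken on exon length. The members had a median exon length of 5910 bases, against 4330 bases in all genes tested. The part of length in these shares was not tested. Rora had r 0.979 and rho 0.979 (permutation p = 1e-05 for each, the smallest that these permutations can give; adjusted p = 3.47e-05), and r was 0.971 without the 2 libraries farthest from the median slope. Itpr1 had r 0.929 and rho 0.931 (the same permutation p), and 0.893 without them. Cacna1a, Kcna1, Ttbk2, Kcnd3, Atxn2, Vldlr and Atxn1 had r from 0.93 to 0.961 and rho of at least 0.912, with the same permutation p. Stub1 ran the other way, with r -0.888 and rho -0.888 (permutation p = 1e-05), and -0.839 without those libraries. Sil1 (r -0.779, rho -0.76) and Coq8a (r -0.619, rho -0.56) were the other members with a negative relation. Tbp (r -0.00775), Aptx (-0.173), Elovl5 (0.234), Ppp2r2b (0.245) and Atxn10 (-0.339) had no relation that passed the test.

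An r over 0.8 was found in 13 of 27 members (48.1%) and in 14.2% of all genes. These 13 had a median exon length of 11406 bases, against 4089 bases for the other 14. The slope is taken on exon length over genes that include the members. A choice by high r therefore favours long genes, and the direction of this split is no separate result. Length did not sort the members fully. Tbp, with 13576 bases of exon, did not follow the slope, and Eef2, with 3324 bases, did (r 0.901). An offset for gene length left the residual SD of Kcna1 near its value (0.274, against 0.286 without it) and that of Eef2 wider (0.178, against 0.132). Among the members whose residual SD grew with the offset were also Tbp (0.234, against 0.0801) and Atxn10 (0.133, against 0.0497). What in the libraries gives the trend was not tested.

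**Figure D4:**
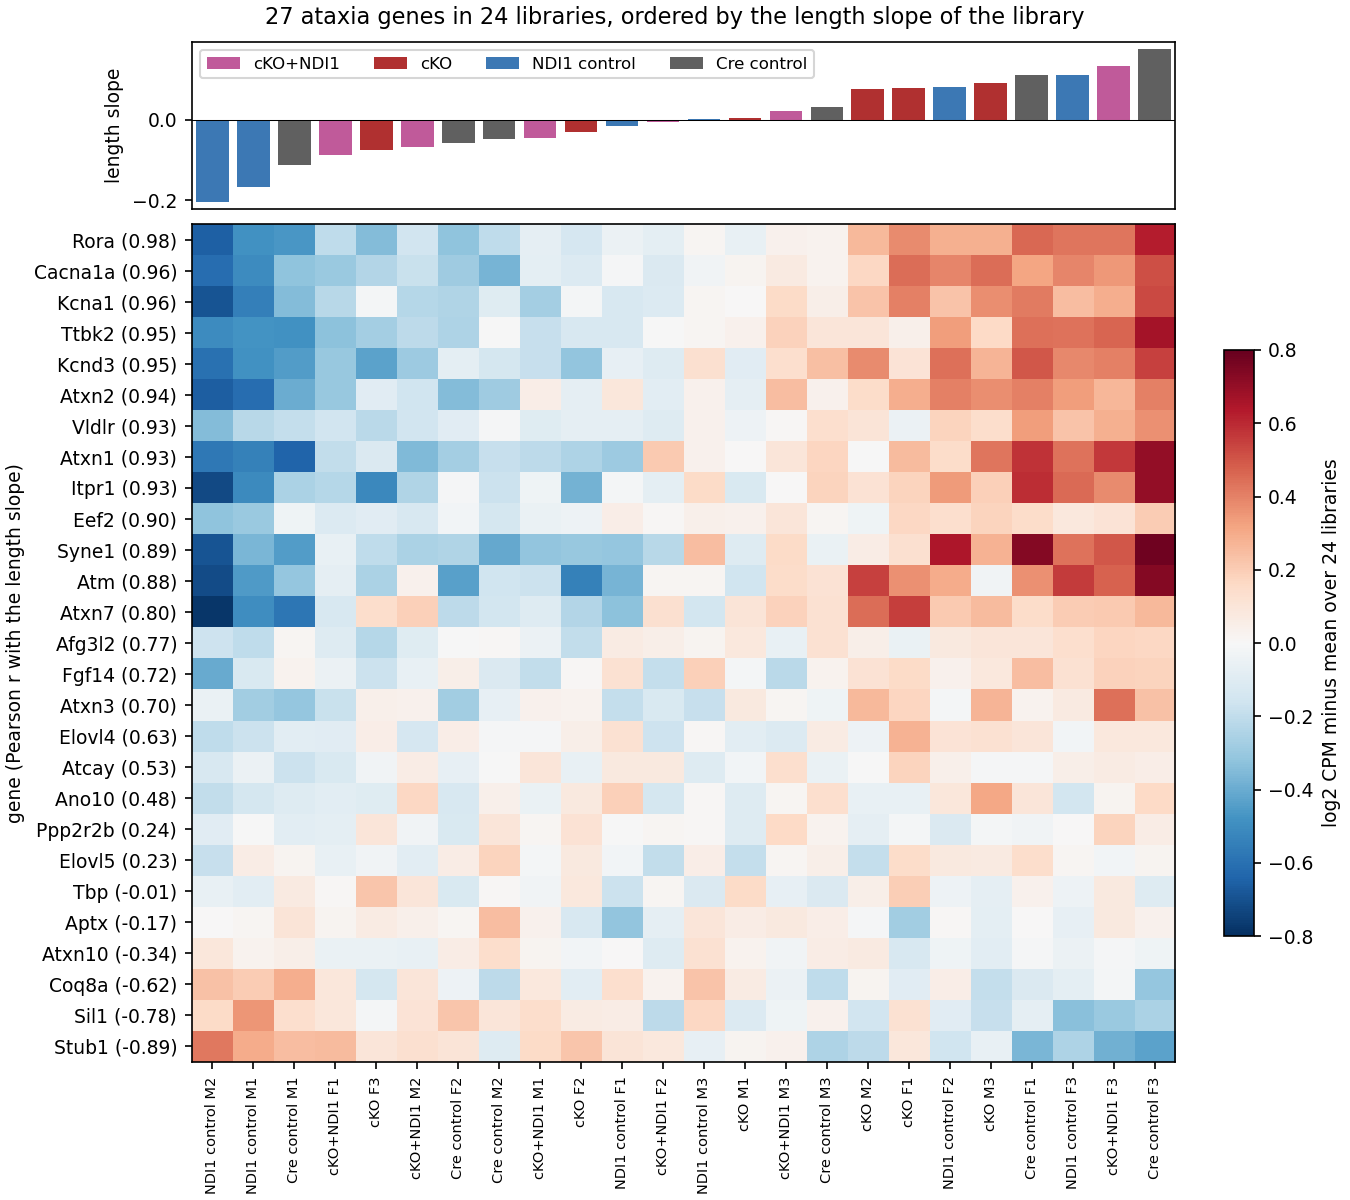
Top, length slope of each library, coloured by genotype group. Bottom, log2 CPM of each tested member minus its mean over 24 libraries, with libraries in order of the slope and genes in order of their Pearson r with it; Rora (0.98) to Atxn7 (0.80) turn from low to high along the axis, Stub1 (-0.89) does the reverse, and the groups are mixed along it, with cKO libraries between -0.0747 and 0.0911 and the lowest 2 libraries both NDI1 control.

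With an offset for gene length fitted to each library, 1 of 27 members was called in cKO against Cre control, and 1250 of all genes (8.17%). That member was Itpr1 (ENSMUSG00000030102, chromosome 6, 108213118 to 108551109, plus strand), the channel through which Purkinje cells turn IP3 into a calcium signal. After the offset its level ran from 1925 through 2367 to 2456 CPM in cKO libraries, against 2382, 2710.0 and 2919 in Cre control libraries. Every Cre control library but the lowest lay above all 6 cKO libraries. The log2 difference was -0.24 ± 0.07 (95% interval -0.37 to -0.10, adjusted p = 0.0250), close to the -0.25 ± 0.18 without the offset, and the SE was smaller. In cKO+NDI1 the level with the offset ran from 2328 through 2425 to 2698 CPM, against 2186, 2647 and 2717 in NDI1 control, a log2 difference of -0.04 ± 0.07 (adjusted p = 0.968). The difference of these effects was 0.20 ± 0.09 (adjusted p = 0.737), so the effects with and without NDI1 were not shown to differ.

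The call of Itpr1 with the offset ended in 4 of 24 fits that left out 1 library. Without Cre control replicate F1 the adjusted p was 0.0665, without Cre control replicate F2 0.0525, without cKO replicate F2 0.0677 and without cKO replicate F3 0.0625, and the log2 difference over the 24 fits ranged from -0.27 to -0.19. In a fit to the groups of the comparison alone it was -0.24 (adjusted p = 0.0689). By sex it was -0.40 ± 0.08 in females (adjusted p = 0.0112, where 6.54% of all genes were called) and -0.08 ± 0.09 in males (adjusted p = 0.655); the difference between the sexes was not tested. Without the offset, the log2 difference was -0.68 in females (adjusted p = 0.125) and 0.13 in males (adjusted p = 0.730). These fits were added after the values were seen, except those by sex without the offset.

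**Figure D5:**
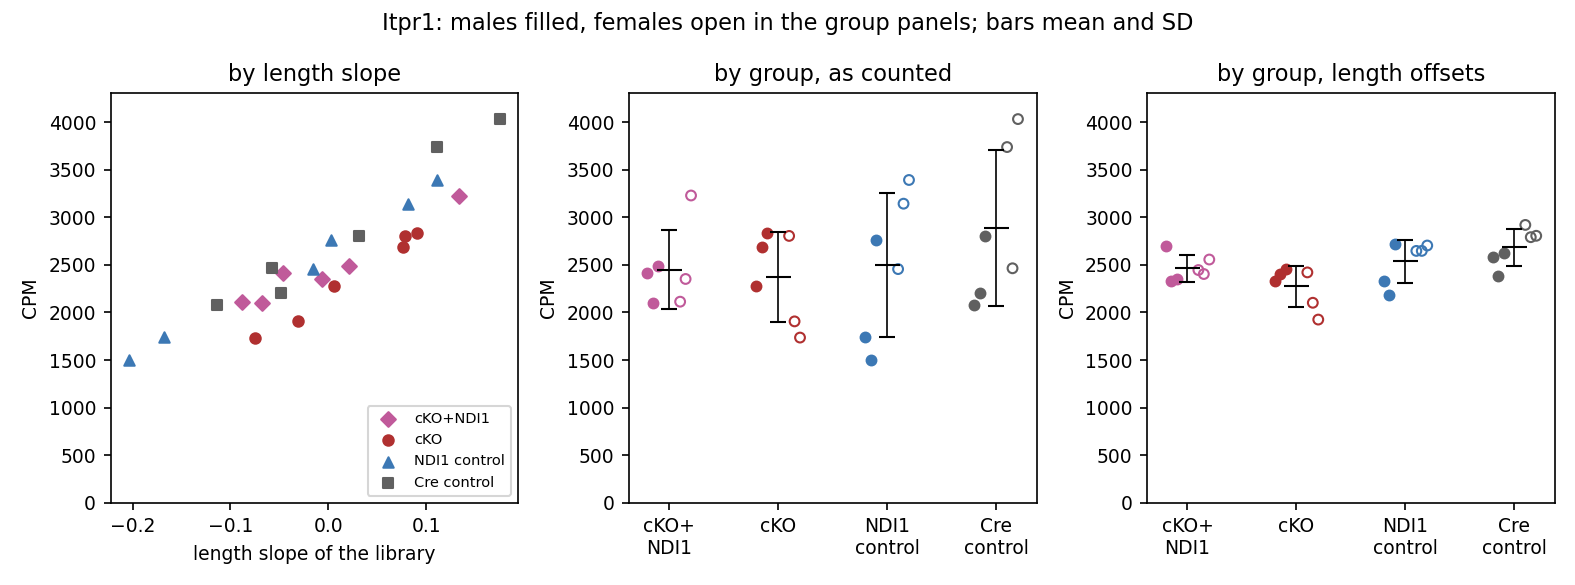
Itpr1 CPM in 24 libraries against the length slope of the library (left), by genotype group as counted (middle) and by group with the length offset (right); in the group panels filled points are males, open points females, and bars the mean and SD of 6. Along the slope the levels rise in all groups, and with the offset the SD is 213 CPM in cKO and 193 in Cre control, against 474 and 817 as counted.

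Models that take up the variation between libraries with a further term called more members, and many more genes in all. With 1 surrogate variable, 6 members were called in cKO against Cre control, beside 3185 of all genes (20.8%). Atxn3 (log2 0.21 ± 0.07), Atxn7 (0.28 ± 0.08), Cacna1a (0.14 ± 0.05) and Stub1 (0.16 ± 0.05) were higher in cKO, and Itpr1 (-0.27 ± 0.05, adjusted p = 0.00011) and Vldlr (-0.12 ± 0.04) were lower. With the length slope of the library as a covariate, 7 were called, beside 3148 of all genes (20.6%), and 5 of these were Atxn3, Atxn7, Stub1, Itpr1 and Vldlr in the same directions. The others were Afg3l2 (-0.12 ± 0.04) and Kcnd3 (-0.14 ± 0.05), both lower in cKO. The surrogate variable ran nearly opposite to the length slope over the libraries. It was 0.442 in NDI1 control replicate M2, where the slope was -0.204, and -0.386 in Cre control replicate F3, where the slope was 0.175. Both fits thus take up much the same variation, and calls shared by them are not separate evidence. Of the genes named in these fits, Afg3l2, Kcnd3, Stub1, Vldlr and Itpr1 changed sign in males alone and Cacna1a in females alone, in fits with neither term and with no call. A share of 6 or 7 in 27 is near the share of all genes called in the same fits. In cKO+NDI1 against cKO, the surrogate variable called 1 member, Kcna1 (log2 -0.15 ± 0.04), beside 2.9% of all genes, and the covariate called 1, Itpr1 (0.18 ± 0.04, adjusted p = 0.0252), beside 2.52%. Without these terms the log2 difference of Itpr1 between cKO+NDI1 and cKO was 0.03 ± 0.18 (adjusted p = 0.981), and it was negative in males alone (-0.15) and without cKO+NDI1 replicate F3 (-0.04), cKO replicate F2 (-0.05) or cKO replicate F3 (-0.07).

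Itpr1 is abundant in Purkinje cells, and in bulk tissue fewer cells of a type cannot be told apart from less RNA per cell. The summed level of the 7 Purkinje cell markers ran from 6747 to 7899 CPM in cKO, against 6778 to 8758 in Cre control. Its largest part was Car8, with means of 3182 CPM in cKO and 3647 in Cre control, of 7214 and 7759 for the sum. Of the 7 markers, 2 had positive log2 fold changes, and 1 was called in that comparison (4.87% of all genes were). This was Slc1a6, the glutamate transporter of Purkinje cells, which fell by 0.34 ± 0.06 on the log2 scale (adjusted p = 0.00267), with 213 ± 9.28 CPM in cKO and 270.5 ± 21.8 in Cre control. The Slc1a6 call was kept in all 24 fits without 1 library. In males alone Slc1a6 was not called (log2 -0.28, adjusted p = 0.161), nor in males with the length offset (-0.14, adjusted p = 0.516). Calb1 (log2 -0.03 ± 0.06) and Pcp2 (0.06 ± 0.14) did not pass the test. The summed level of 6 markers of Bergmann glia and astrocytes ran from 3057 to 3357 CPM in cKO, against 3619 to 4015 in Cre control, without overlap. Of these, 0 had positive log2 fold changes and 2 were called lower (1.81% of all genes). Slc1a3 alone averaged 1743 CPM in cKO and 2112 in Cre control, of 3215 and 3812 for the sum. The summed level of 5 endothelial markers ran from 210 to 254 CPM in cKO, against 165 to 196 in Cre control, also without overlap. Of these, 4 had positive log2 fold changes and 2 were called higher (3.06% of all genes). Flt1 went the other way, with 54.8 CPM in cKO and 60.8 in Cre control. The part of these cell types in the members' values was not tested.

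Beyond the 28 members, 50 further genes of inherited ataxias were counted, of which 49 could be tested. In cKO against Cre control 2 were higher (3.06% of all genes tested were higher) and 2 lower (1.81%), and the median of the list was -0.01 (all genes -0.01). Clcn2, a chloride channel of glia and neurons, ranged from 54.2 to 63.5 CPM in cKO libraries, against 37.7 to 53.8 in Cre control libraries (log2 0.44 ± 0.08, adjusted p = 0.00278). Plekhg4, a guanine nucleotide exchange factor, ranged from 2.76 to 6.42 CPM in cKO libraries, against 1.55 to 2.61 in Cre control libraries (log2 0.72 ± 0.19, adjusted p = 0.0259). In both, no cKO value reached down to the Cre control values. Slc1a3, the glutamate transporter of Bergmann glia, ranged from 1668 to 1909 CPM in cKO libraries, against 2029 to 2290.0 in Cre control libraries (log2 -0.28 ± 0.05, adjusted p = 0.00262), and is also among the glial markers above. The call of Plekhg4 ended without cKO replicate F1 (log2 0.52, adjusted p = 0.0777), Cre control replicate F1 (0.0584) or F3 (0.0587).

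Clcn2, Plekhg4 and Slc1a3 were not called in cKO+NDI1 against NDI1 control. There the log2 difference was 0.13 ± 0.08 for Clcn2, 0.21 ± 0.17 for Plekhg4 and -0.23 ± 0.05 for Slc1a3, with adjusted p-values of at least 0.259. The Slc1a3 values did not overlap between these groups, at 1643 to 1938 CPM in cKO+NDI1 and 2003 to 2285 in NDI1 control. The share of all genes without overlap there is not given here, and 0 of 15300 genes were called. Slc1a3 was named for its call in another comparison. None of the 3 passed the interaction test (adjusted p at least 0.852). In NDI1 control against Cre control, Clcn2 differed by 0.33 ± 0.08 (adjusted p = 0.172) and Plekhg4 by 0.66 ± 0.18 (adjusted p = 0.245). In cKO+NDI1 against Cre control 3 of the 49 were higher (0.843% of all genes) and 1 lower (0.405%). These were Clcn2 (log2 0.46 ± 0.08), Plekhg4 (0.87 ± 0.18) and Polg, the polymerase of mitochondrial DNA (0.29 ± 0.06), and Slc1a3 (-0.20 ± 0.05). The Slc1a3 call, with an adjusted p of 0.0496, ended in 22 of 24 fits without 1 library, that of Polg in 7 and that of Plekhg4 in 5, and the highest adjusted p-values were 0.145 without cKO+NDI1 replicate M2 for Slc1a3, 0.0836 without cKO+NDI1 replicate F2 for Polg and 0.0815 without cKO+NDI1 replicate M2 for Plekhg4. The call of Clcn2 was kept in all 24. Other settings ended calls too. For cKO against Cre control, Clcn2 (log2 0.22, adjusted p = 0.266) and Slc1a3 (-0.23, adjusted p = 0.157) were not called in males alone. Plekhg4 was not called after thinning (adjusted p = 0.135), in the groups of the comparison alone (0.0937), in males (0.358) or in females (0.0796). For cKO+NDI1 against Cre control, none of Clcn2, Plekhg4, Polg and Slc1a3 was called in either sex alone. There thinning also ended the call of Plekhg4 (0.204), the length offset that of Polg (0.0736), and 8 of 12 settings that of Slc1a3 (Polg 5, Plekhg4 3, Clcn2 2).

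Between the sexes, 7 members had an unadjusted p under 0.05 in male against female, where 16.9% of all genes did. Of the 27, 21 had negative and 6 positive log2 fold changes, where 49.8% of all genes were positive. The smallest p was that of Elovl4 (log2 -0.11 ± 0.04, adjusted p = 0.291). The largest differences were in long genes, with -0.34 ± 0.15 in Syne1 and -0.31 ± 0.14 in Atxn1. Tbp, also long at 13576 bases of exon, differed by -0.03 ± 0.04. The length slope averaged -0.0348 ± 0.0918 in males and 0.0348 ± 0.0902 in females, with overlap between the sexes. The part of the length trend in these sex differences was not tested. With the length offset, the differences with an unadjusted p under 0.05 were those of Coq8a, Aptx, Elovl4, Eef2 and Kcna1, and 0 members were called. In that fit 2389 of all 15300 genes had an unadjusted p under 0.05.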

How the data were processed

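Whole cerebellum RNA was purified on columns and libraries were made after polyA selection, per the labels' protocols. The deposited table holds raw counts of reads per gene from the authors, with no normalization. The tools bcl2fastq, Trimmomatic, STAR and HTSeq and the build mm10 come from the submitters' processing notes, without versions or order. The strand setting of the counting is not given in the sources used here, so reads of overlapping antisense transcripts cannot be told apart.

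Here, counts were scaled by TMM, genes too low for filterByExpr (by group) were left out, and edgeR 4.0.16 (quasi-likelihood F test, robust, limma 3.58.1, R 4.3.3) was fitted to all 24 libraries with genotype group and sex. The groups come from the labels, and p-values measure the spread between these mice. Adjustment was by Benjamini-Hochberg, over 15300 genes in each comparison. CPM used TMM-scaled library sizes, and logs used a prior count of 2. Exon lengths are unions of GENCODE M21 exons, which 15213 of the tested genes had. Length offsets were a lowess (span 0.3) of log2 level relative to the mean library on log2 exon length, one curve per library. DESeq2 1.42.0, limma-voom and sva (3.50.0) gave alternatives. Gene positions are those of the deposited table (mm10); 11 members have other ends in GENCODE M21. The main fit and the fit with length offsets were run on simulated data with known changes, and the other fits were not. The simulated libraries carried the length trend in the form that the offsets remove, so they cannot test whether that form is right. All 60 pairs of libraries within groups differed by more than sampling noise (chi-square per degree of freedom at least 4.59).

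The members, the further ataxia genes and the marker lists were chosen with earlier results of these data known. All 28 members are named, with full values for any called and for the member with the smallest p in each comparison, and of the further ataxia genes those called, except 1 that is not reported here. Values of other members were added after they were seen. The table holds 0 columns of other samples. Replicate numbers did not pair the libraries.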

Additional observations from a re-analysis of the deposited data

Results flagged for a closer look

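Of 112 sets of 6 libraries (28 genes in 4 groups), 6 held a library whose gap to the nearest of the others exceeded Dixon's critical value at the 95% level, where chance gives about 1 in 20. In cKO+NDI1, replicate F3 stood above the other 5 in 4 genes. Its Atxn3 level was 25.3 CPM, against 16.5 to 19.1 in the others. Its Itpr1 level was 3230.0 CPM (others 2100.0 to 2480.0), its Vldlr level 160.0 CPM (118 to 132) and its Rora level 399 CPM (257 to 304). This library had the lowest total of the 24, 7584374 counts, and the second highest length slope, 0.133. The part of depth and of the length trend in these values was not tested. Atcay was set apart in cKO replicate F1, at 176 CPM against 149 to 155 in the others, and in cKO+NDI1 replicate F1, at 143 CPM against 162 to 170.0.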

How the results depend on the processing

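No member was called in any comparison with RLE size factors, library size alone, DESeq2, limma-voom, no filter on low counts, libraries thinned to the smallest total, the groups of the comparison alone, males alone, females alone or without any 1 of the 24 libraries (0 in each). In cKO against Cre control, 1 member was called with offsets for gene length, 6 with 1 surrogate variable, 7 with the length slope as a covariate and 1 with the offsets in females alone. In cKO+NDI1 against cKO, 1 was called with the surrogate variable and 1 with the covariate. With the offsets and 1 library left out, 0 to 1 members were called in cKO against Cre control: without cKO replicate F2 it was Atxn7 (log2 0.35, adjusted p = 0.0416) and not Itpr1. Without Cre control replicate M1, the library with the highest Coq8a level of all, Coq8a was called in NDI1 control against Cre control (log2 0.32, adjusted p = 0.0261). The shares of all genes called in these fits without 1 library are not given here. With the offsets and all 24 libraries, 1250 of 15300 genes were called in cKO against Cre control and 37 in NDI1 control against Cre control. The covariate and the combinations with offsets were chosen after seeing the data. The cause of these differences between models was not tested.

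Over all genes, the count in cKO against Cre control was 745. It was 1157 with DESeq2, 425 with no filter, 494 after thinning, 1250 with the offsets, 3185 with the surrogate variable, 3148 with the covariate and 263 in the groups of the comparison alone, and 504 to 914 without 1 library. In males alone it was 38 and in females alone 364. The split of higher and lower calls was 468 and 277, against 543 and 221 with library size alone, 703 and 547 with the offsets and 1505 and 1680 with the surrogate variable. For cKO+NDI1 against NDI1 control the count of 0 became 25 with DESeq2, 4 with the offsets, 53 with the surrogate variable and 49 with the covariate. For cKO+NDI1 against cKO the count of 32 became 107, 58, 443 and 385 in those fits, and 10 to 42 without 1 library. For cKO+NDI1 against Cre control the count of 191 became 511, 475, 1630 and 1564, and 26 to 279 without 1 library. Between NDI1 control and Cre control the count of 1 became 79, 37, 292 and 271. The replicate block, with the label number in place of sex, gave 754 over all genes and 0 members in each comparison. Same-numbered libraries did not deviate together (residual correlations -0.466 to 0.474 over 36 pairs), so the number is not a pairing.

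With library totals down to 7584374 counts, Pdyn was tested with no filter on low counts but not in the fit to all 24 libraries with the filter, and differences in Atm had wide intervals. Single libraries were not left out of the fits with the surrogate variable or the covariate.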
